A study of Mus musculus with 6 samples.

Results

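Receptors for neurotransmitters and hormones, with some of their ligands, were examined in mesenchymal stem cells of mouse bone marrow, which can give rise to osteoblasts, adipocytes and chondrocytes. The genes were the rows that the authors' deposited table annotates with the KEGG pathway term for neuroactive ligand-receptor interaction. That term covered 187 of 19353 genes, and Mchr1, Lepr, Pth1r, Nr3c1 and C3 were set aside by definition, which left 182. The cells were labelled as purified primary wild-type (WT) marrow cells. All 6 samples were kept under osteogenic induction with 50 µM ascorbic acid, 10 mM β-glycerophosphate, 100 nM dexamethasone and 10% FBS. Melanin-concentrating hormone (MCH), a hypothalamic peptide, was added at 0.5 µM to 3 of them, and the 3 labelled Control went without. Sampling was on day 9 by the titles but on day 8 by the series design. The labels state no age, sex, strain or number of animals and leave unsaid whether replicates are separate animals or cultures. Any p-value here thus measures spread among 3 samples a group, perhaps only technical. The question was how transcript levels differ when MCH is added.

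A receptor of this kind passes a signal from a small molecule, lipid, peptide or hormone outside the cell to its interior. Ionotropic receptors are ion channels built from several subunits, G protein-coupled receptors act through heterotrimeric G proteins, and nuclear hormone receptors bind DNA. In bone, lipid mediators, nucleotides, prostaglandins, bradykinin and sympathetic noradrenaline are known to act on stromal and osteoblastic cells, and glutamate receptors have been described in them as well.

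Of the 182 genes, 74 were expressed, that is, had a mean of at least 10 counts over the 6 libraries, and 108 were not. Receptors and other non-ligand proteins accounted for 60 of 142, ligands for 14 of 40. With MCH, 8 genes were lower and 3 higher out of 73 that were deep enough to test (adjusted p under 0.05 in edgeR's quasi-likelihood test, corrected over all genes by Benjamini and Hochberg). The genes that fell were the glutamate receptor genes Grin3a, Gria1, Grik2 and Grik5, the GABA receptor gene Gabbr1, the thyroid hormone receptor gene Thra, the prostaglandin receptor gene Ptger1 and the hormone precursor gene Agt. Those that rose were Lpar6, F2r and Gipr, receptors for lysophosphatidic acid, thrombin and the gut hormone GIP. The falls of Grin3a, Agt and Gria1 exceeded 2-fold, and none of the 3 rises did. The share called was 15.1% of the tested genes, against 9.04% of all 13662 genes tested. It was 10.96% for lower calls against 5.40% of all genes, and 4.11% for higher calls against 3.64%. Of the 73, 12 passed the filter on low counts in every Control library but not in every MCH library, Grin3a and Agt among them, and 2 passed it the other way round. These shares describe the genes that passed and give no support for a shift of the whole set. In the authors' deposited table, 4 of the 11 called genes had a q-value under 0.05 (Grin3a 3.76e-07, Agt 5.23e-07, Gria1 7e-07 and Thra 0.0338), and the other 7 did not, from 0.0588 for Ptger1 to 0.464 for Gipr. The authors' deposited table marks 5 of the 182 genes UP (Grin3a, Gria1, Agt, Grm8 and Cck) and 0 DOWN. Over the whole of the authors' deposited table, all 212 genes marked UP had higher mean counts in the columns without MCH in their name, and all 31 marked DOWN had higher counts in the MCH columns. That table does not say which group is its reference, and the directions given here follow the column names.

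**Figure D1:**
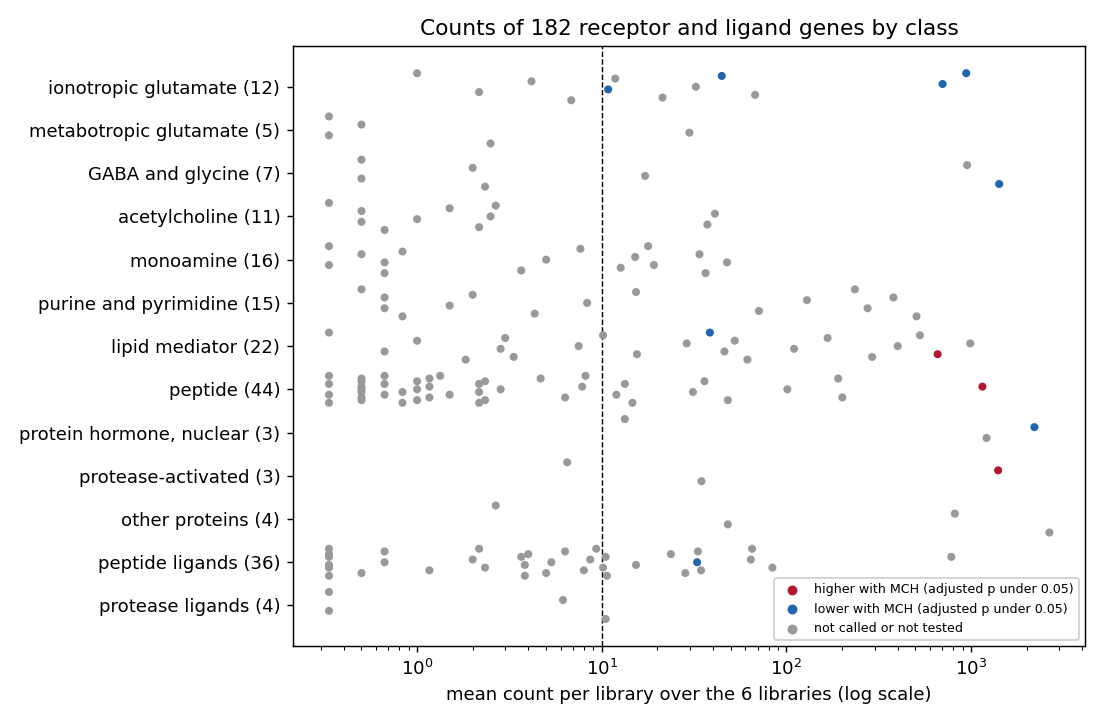
Mean count per library over the 6 libraries (log scale) for the 182 genes, 1 point per gene, by class with the number of genes in parentheses, where counts are not divided by gene length. The dashed line marks 10 counts; 74 genes lie at or above it, the 3 red points were called higher with MCH and the 8 blue points lower.

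Library totals ran from 16521980 to 18803949 counts. Stromal markers were present, with 64369 to 95948 counts of Col1a1. Of 11 such markers, 6 were called lower with MCH, where 5.40% of all tested genes were. Thy1, Eng, Cd44 and Cxcl12 overlapped between the groups, and Vcam1 lay above every Control library without a call (0.48 on the log2 scale). Of 8 neuronal markers in the table, 2 were expressed, Syn1 with 29 to 46 and Tubb3 with 15 to 26 counts; Snap25 had 0 to 5, Syt1 0 to 3, Map2 and Nefl 0 to 1, Stmn2 2 to 11 and Elavl3 1 to 10. Their summed level was 3.52 to 4.58 CPM (counts scaled to library size by TMM) with MCH and 3.63 to 4.47 CPM in Control. The glial list summed to 23.5 to 26.9 CPM with MCH and 24.6 to 28.9 CPM in Control, most of it Mbp (377 to 437 counts), while S100b had 0 to 4. The leukocyte list summed to 13.9 to 28.3 CPM with MCH and 8.71 to 12.5 CPM in Control. The defining leukocyte gene Ptprc had 0 to 2 counts, while Cd3e rose, from 39 to 61 counts in Control to 125 to 153 with MCH (1.46 on the log2 scale). Of the osteoblast genes, Spp1 and Alpl fell with MCH, and Sp7 and Bglap had 0 to 4 counts. The smooth muscle list summed to 1688 to 1872 CPM with MCH and 1411 to 1553 CPM in Control, most of it Acta2. Tagln was called higher (0.35 on the log2 scale), while Des (-0.85) and Rgs5 (0 to 7 counts) lay below Control without a call. The adipocyte list overlapped, at 107 to 132 CPM with MCH and 112 to 124 CPM in Control. In it Lpl was called higher (0.43), and Fabp4 lay below every Control library without a call (-0.35). Adipoq and Plin1 had 0 to 3 counts. The part of these shifts in the results below was not tested. MCH replicate 3 held 50 counts of the macrophage gene Adgre1, against 0 to 11 in the others. In these bulk samples, fewer cells of a type and less RNA per cell cannot be told apart.

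Promoters are shown for 3 genes that fell: Agt, the 1 ligand among the calls, and Grik2 and Grik5, the kainate subunits that fell together. The set of RefSeq promoter windows used here held an entry for 139 of the 182 genes and 6 of the 11 called. Grin3a, Gria1, Thra, Ptger1 and Gipr had none in that set. Each window is the 250 bases before the start, written 5′ to 3′ on the gene's strand in build GRCm38.p6, with motif matches in capitals. The windows are chr8:124569707-124569956 on the minus strand for Agt, chr10:49788755-49789004 on the minus strand for Grik2 and chr7:25072370-25072619 on the minus strand for Grik5.
Agt: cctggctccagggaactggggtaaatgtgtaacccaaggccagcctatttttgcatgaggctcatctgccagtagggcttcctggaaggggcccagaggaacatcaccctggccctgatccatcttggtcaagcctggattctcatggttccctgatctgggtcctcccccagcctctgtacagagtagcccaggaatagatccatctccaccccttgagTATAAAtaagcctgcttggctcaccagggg
Grik2: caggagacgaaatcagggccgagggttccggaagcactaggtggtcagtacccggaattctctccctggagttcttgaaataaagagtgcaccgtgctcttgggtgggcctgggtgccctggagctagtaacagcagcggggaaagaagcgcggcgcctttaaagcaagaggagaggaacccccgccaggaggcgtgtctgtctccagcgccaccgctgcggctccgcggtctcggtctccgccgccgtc
Grik5: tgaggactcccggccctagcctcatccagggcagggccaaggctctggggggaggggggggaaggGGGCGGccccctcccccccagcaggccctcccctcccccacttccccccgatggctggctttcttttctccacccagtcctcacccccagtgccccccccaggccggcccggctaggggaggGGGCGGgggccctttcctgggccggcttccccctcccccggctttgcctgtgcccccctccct
The capitals mark TATAAA, the TATA box letters, in Agt and GGGCGG, the GC box letters, in Grik5. Both strands were searched for these and for the cAMP response element TGACGTCA, the AP-1 motif TGACTCA and the palindromic glucocorticoid response element, none of which is contained in another. TATAAA in Agt lay 30 to 25 bases before the start, and 12.4% of all 32851 windows of that length held it. GGGCGG occurred at 2 places in Grik5 and was in 32.7% of all windows. TGACGTCA was in 1.55% of all windows, TGACTCA in 4.46% and the glucocorticoid element in 0.00913%, and none of the 3 was in these windows. Of the other called genes with a window, Gabbr1 held GGGCGG at 2 places, F2r held GGGCGG and TGACTCA at 1 place each, and Lpar6 held no match. The windows of Grik2 and Grik5 were 62.8% and 75.2% G and C, that of Agt 55.6%, and the median over all windows was 52.4%. A match is a description of the letters and not a site.

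Of 17 glutamate receptor genes, 9 were expressed, all 9 were tested, and 4 were lower and none higher with MCH, where 5.40% of all tested genes were lower. Grin3a and Gria1 were named in the definition of the set, with earlier results of these data known. Grin3a passed the filter through Control alone, and the call of Grik5 was lost in every fit that left out 1 library. The count of falls thus describes these genes and gives no support for a shift of glutamate receptors. Grin3a encodes GluN3A, an NMDA receptor subunit that lowers the calcium permeability of the channels it joins (4:49661611-49845744, minus strand, GRCm38). It had 1, 2 and 2 counts in MCH replicates 1, 2 and 3, against 21, 21 and 18 in Control. All MCH libraries lay far below all Control libraries, and the gene was close to the detection limit with MCH. Mean levels were 1.14 ± 0.129 CPM in Control (SD, n = 3) and 0.0958 ± 0.0322 CPM with MCH, a log2 fold change of -3.48 ± 0.45 (SE; edgeR adjusted p = 0.00440). The ratio of the summed counts, 60 in Control to 5 with MCH, was 11.96 with a 95% exact interval of 4.85 to 38.2, which covers counting error only. The call held in all 6 fits that left out 1 library. Limma on log2(FPKM + 1) did not make it for a gene this low (log2 change -0.08, adjusted p = 0.178).

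Gria1, which encodes the AMPA receptor subunit GluA1, carries fast excitatory transmission in neurons (11:57011387-57330244, plus strand). Its counts were 15, 14 and 25 with MCH and 74, 70 and 70 in Control, so that the groups were well apart and MCH replicate 3 was the highest of its group. The fold change was -1.97 ± 0.26 on the log2 scale (edgeR adjusted p = 0.00562), from 4.09 ± 0.443 to 1.04 ± 0.358 CPM. It was -2.28 without MCH replicate 3, and the call held in all 6 fits that left out 1 library. The other expressed AMPA subunit gene, Gria2, ranged from 6 to 18 counts in Control and 8 to 16 with MCH (0.13 ± 0.50). Its groups overlapped fully and the sign of its change turned in 3 fits with 1 library left out.

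The most abundant glutamate receptor genes were the kainate receptor subunits Grik5 and Grik2. Grik5 encodes a subunit that forms channels only together with a partner such as that of Grik2. Grik2 (10:49099460-49788766, minus strand) had 613, 573 and 569 counts with MCH and 703, 945 and 803 in Control. Its log2 fold change was -0.46 ± 0.08 (edgeR adjusted p = 0.0190). Grik5 (7:25009849-25072346, minus strand) had 833, 870 and 791 counts with MCH and 957, 1072 and 1124 in Control. Its log2 fold change was -0.32 ± 0.08 (edgeR adjusted p = 0.0483). Neither gene's groups overlapped, although the differences were small beside those of Grin3a and Gria1. Per length, Grik5 stood at 6.95 ± 0.316 FPKM with MCH and 8.76 ± 0.695 FPKM in Control, and Grik2 at 2.90 ± 0.224 and 4.02 ± 0.334 FPKM. Dropping MCH or Control replicate 2 or 3 ended the Grik2 call (adjusted p up to 0.0875). That of Grik5 was lost in all 6 fits that left out 1 library (highest adjusted p = 0.174), with limma-voom, with limma on FPKM and in the non-robust fit.

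Other glutamate receptor genes did not pass the threshold. Grin1, which encodes the obligatory NMDA receptor subunit, had 96, 55 and 79 counts with MCH and 47, 71 and 58 in Control (log2 change 0.41 ± 0.24). Grin2d, another NMDA subunit gene, had 31 to 36 and 22 to 38 (0.11 ± 0.25), and Grik4 had 14 to 19 and 13 to 36 (-0.71 ± 0.39). The metabotropic receptor gene Grm4 had 24 to 29 and 26 to 38 (-0.32 ± 0.23). In all 4 the groups overlapped. Below the expression limit, Grm8 had 0 counts in each MCH library and 5, 6 and 4 in Control. With a floor of 3 counts set for the MCH group as a whole, Grm8 was 4.98-fold lower, with no allowance for counting error. It was too low for the edgeR test; its q-value in the authors' deposited table was 0.0162, with the mark UP. Grin3b, Grin2a, Gria3, Grik1, Grm5, Grm6 and Grm7 had means of 0.333 to 6.83 counts.

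**Figure D2:**
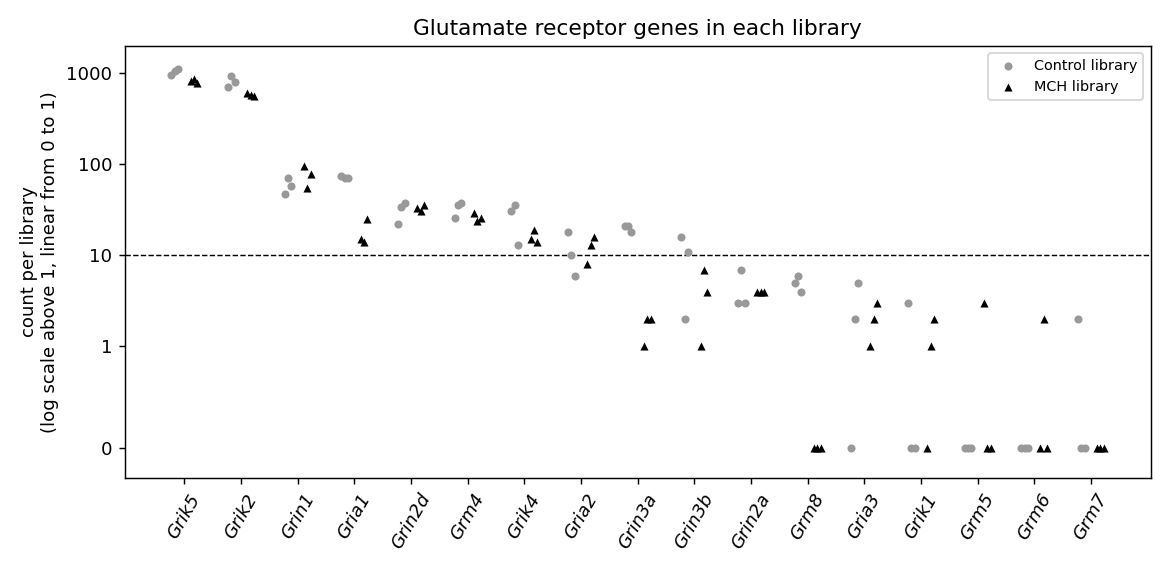
Counts per library (log scale above 1, linear from 0 to 1) for the 17 glutamate receptor genes in 3 Control (grey circles) and 3 MCH (black triangles) libraries, ordered by mean count and not divided by gene length; the dashed line marks 10 counts. Grin3a (1 to 2 against 18 to 21) and Gria1 (14 to 25 against 70 to 74) show the widest separation among the 9 expressed genes, and Gria2 and Grin2d overlap.

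Among receptors for GABA and glycine, inhibitory transmitters in the brain, 3 of 7 were expressed. Gabbr1, the subunit of the metabotropic GABA receptor that binds GABA (17:37045966-37075067, plus strand), had 1250, 1170 and 1266 counts with MCH and 1536, 1781 and 1512 in Control. Every MCH library was below every Control library, and the log2 fold change was -0.37 ± 0.07 (edgeR adjusted p = 0.0203). The call held only without MCH replicate 1 among the 6 fits that left out 1 library (highest adjusted p = 0.0724). Gabbr2, its partner in the functional receptor of neurons, had 0 to 2 counts. Gabre, a subunit gene of the GABA-gated chloride channel, was as high as 10.9 FPKM over all libraries and showed no separation, at 730 to 1086 counts in Control and 910 to 1098 with MCH (0.13 ± 0.11). No other GABA channel subunit gene of the set reached 10 counts: Gabra3 had a mean of 2 and Gabrr2 of 2.33. Glrb, the glycine receptor beta subunit, had 16 to 24 and 13 to 16 counts (0.54 ± 0.31), and the alpha subunit gene Glra1 had a mean of 0.500.

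The acetylcholine and monoamine receptors held no call. Of 11 acetylcholine receptor genes, the nicotinic subunit genes Chrnb2 and Chrnb1 were expressed (21 to 51 and 31 to 45 counts, log2 changes -0.50 ± 0.28 and 0.35 ± 0.18), and Chrna1, which pairs with Chrnb1 in muscle, had a mean of 1.50. Of 16 monoamine receptor genes, 7 were expressed at means of 12.7 to 47.7 counts. Among them were the adrenergic genes Adra1d, Adra1b and Adra2a, the serotonin genes Htr2a and Htr1b and the histamine gene Hrh1. Adra1d was the highest of them per length (1.10 FPKM). It had 44, 52 and 37 counts with MCH and 21, 29 and 36 in Control (0.64 ± 0.25, edgeR adjusted p = 0.150), and its groups were separate on the CPM scale by a narrow margin. Htr1b varied most within a group, with 29, 1 and 18 counts with MCH and 25, 10 and 8 in Control. The dopamine receptor genes Drd4 and Drd1 had means of 5.00 and 0.500 counts.

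Purine and pyrimidine receptors, which respond to adenosine and extracellular nucleotides, were expressed in 7 of 15 cases, and none was called. Adora2b, the low-affinity adenosine receptor coupled to cAMP, was the highest of them per length at 15.7 FPKM, with 475, 555 and 580 counts with MCH and 454, 484 and 491 in Control (0.18 ± 0.10). P2ry6, a UDP receptor, stood at 7.78 ± 1.09 FPKM with MCH and 8.53 ± 1.41 FPKM in Control. The ATP-gated channel genes P2rx4, P2rx7 and P2rx3 and the nucleotide receptor gene P2ry2 had 50 to 436 counts per library. Their log2 changes were all below 0, from -0.49 ± 0.24 for P2rx7 to -0.17 ± 0.11 for P2rx4, and none passed the test. P2rx3 alone of the 4 had groups that did not overlap, at 73 to 86 counts in Control and 50 to 68 with MCH.

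Receptors for lipid mediators had the most expressed members, 14 of 22. Those for lysophosphatidic acid and sphingosine 1-phosphate, lipids released by platelets and many other cells, were the highest per length. Lpar1 stood at 11.01 FPKM and S1pr2 at 10.8 FPKM over all libraries. Their log2 changes were 0.01 ± 0.07 and 0.02 ± 0.08, with overlapping groups. Lpar6 (14:73237895-73243294, plus strand) had 735, 755 and 723 counts with MCH and 571, 620 and 548 in Control. All 3 MCH libraries were above all Control libraries, and Lpar6 rose by 0.36 ± 0.07 (edgeR adjusted p = 0.0263). Dropping replicate 2 or 3 of either group ended its call (adjusted p up to 0.0999). S1pr1 pointed the other way, with 321 to 386 counts against 409 to 509 in Control and groups that did not overlap (-0.31 ± 0.10), and did not pass (edgeR adjusted p = 0.0983). Lpar4, Lpar2 and S1pr3 did not pass either. Lpar6 lies inside Rb1 on the other strand and shares 7.56% of its exon bases with it; Rb1 itself was not called (0.08 ± 0.12).

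Prostaglandin receptors were expressed at lower levels, each under 1 FPKM. Ptger1, which encodes the EP1 receptor for prostaglandin E2 (8:83666833-83672753, plus strand), had 26, 28 and 23 counts with MCH and 41, 51 and 62 in Control. The groups did not overlap, and Ptger1 fell by 0.98 ± 0.23 (edgeR adjusted p = 0.0365). Its call was lost in all 6 fits that left out 1 library (highest adjusted p = 0.130), with limma-voom and with limma on FPKM. Its value is uncertain, since its exons are not free of overlap and whether counting used strand is not given in the sources used here. Ptger4 (34 to 51 counts against 55 to 71) and the prostaglandin F receptor gene Ptgfr (26 to 45 against 53 to 56) also had groups that did not overlap, at -0.49 ± 0.20 and -0.53 ± 0.24, without a call. Ptger2 and Ptgir overlapped. Gpr35 split the libraries across both groups, with 387, 464 and 403 counts in MCH replicate 2 and Control replicates 2 and 3 and 154 to 184 in the rest.

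Peptide receptors were the largest class, and 10 of 44 were expressed. Gipr, the receptor of a gut hormone that is also known to act on bone cells (7:19156061-19166127, minus strand), was the highest of them at 11.05 FPKM. It had 1252, 1295 and 1223 counts with MCH and 1000, 1109 and 1031 in Control. Libraries within each group were close, the groups did not overlap, and Gipr rose by 0.28 ± 0.06 (edgeR adjusted p = 0.0350). The call was lost in all 6 fits that left out 1 library (highest adjusted p = 0.115). Npy1r, a neuropeptide Y receptor gene, had 174, 123 and 156 counts with MCH and 203, 271 and 217 in Control, a change of -0.58 ± 0.16 just short of the threshold (edgeR adjusted p = 0.0618). It was called by DESeq2 and without MCH replicate 1. The galanin receptor gene Galr2 had 182 to 227 counts and did not differ beyond the spread (0.14 ± 0.11).

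Ednra, the endothelin A receptor gene, had 28, 22 and 10 counts with MCH and 35, 40 and 52 in Control, a change of -1.06 ± 0.37 without a call (edgeR adjusted p = 0.110). The bradykinin receptor genes Bdkrb1 and Bdkrb2 were low in MCH replicate 2, with 34 and 14 counts against 97 to 118 and 39 to 40 in the other MCH libraries. Kiss1r, Oprl1, Oxtr and Fpr2 were expressed at means of 12 to 48.2 counts with overlapping groups. The other 34 genes had means of 0.333 to 8.17 counts. Among them, C3ar1, a complement receptor gene of myeloid cells, had 27 counts in MCH replicate 3 and 0 to 9 elsewhere, and Cysltr1 of the lipid class had 22 there and 3 to 10 elsewhere. Adgre1 was high in that library too, and its part in these values was not tested.

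Of the protease-activated receptors, F2r encodes PAR1, the thrombin receptor (13:95601804-95618459, minus strand), and was the second most abundant of the 182 genes per length. Its counts were 1639, 1497 and 1530 with MCH and 1117, 1419 and 1205 in Control. The groups did not overlap, with Control replicate 2 nearest in count to the MCH libraries, and F2r rose by 0.34 ± 0.07 (edgeR adjusted p = 0.0298). The level was 27.1 ± 2.32 FPKM with MCH and 21.5 ± 1.203 FPKM in Control. Among the 6 fits that left out 1 library the call was kept only without MCH replicate 1 (highest adjusted p = 0.106), and limma on FPKM did not make it. F2rl2 was low (27 to 44 counts) with overlapping groups (0.15 ± 0.27).

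Thra, the nuclear receptor alpha for thyroid hormone (11:98740638-98769006, plus strand), was the third most abundant per length. It had 1732, 1923 and 1836 counts with MCH and 2474, 2609 and 2639 in Control. The 2 groups were separated by a gap wider than the spread within either, and Thra fell by 0.48 ± 0.07 (edgeR adjusted p = 0.00666), from 25.3 ± 1.37 to 18.03 ± 0.258 FPKM. The call held in all 6 fits that left out 1 library. Thra shares 5.70% of its exon bases with Nr1d1, a clock gene on the opposite strand, which was itself lower by less (log2 change -0.25 ± 0.06, edgeR adjusted p = 0.0453). Thrb, the beta receptor gene, had 10 to 18 counts (-0.41 ± 0.32), and the growth hormone receptor gene Ghr stood at 5.43 ± 0.163 FPKM with MCH and 6.08 ± 0.0841 FPKM in Control (-0.15 ± 0.06, edgeR adjusted p = 0.157).

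The most abundant of the 182 genes was Tspo, a cholesterol-binding protein of the outer mitochondrial membrane, at 165 ± 8.85 FPKM with MCH and 192 ± 11.1 FPKM in Control. Its change of -0.21 ± 0.08 did not pass (edgeR adjusted p = 0.146). Pard3, a cell polarity gene and not a receptor, is in the set because the deposited table gives it the pathway term. It had 552 to 1042 counts and overlapping groups (-0.04 ± 0.23).

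**Figure D3:**
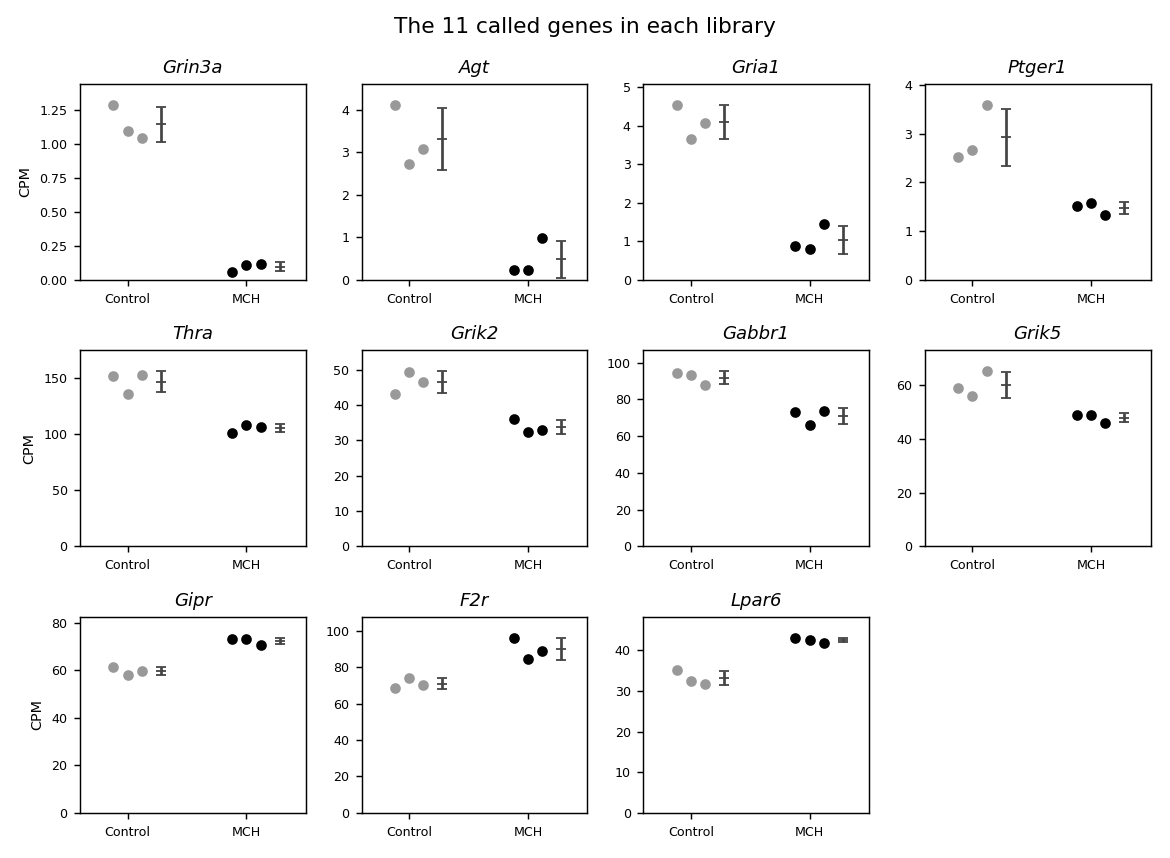
TMM-scaled CPM of the 11 called genes in each library, with 3 Control (grey) and 3 MCH (black) points per gene, replicates 1 to 3 from left to right, and the mean ± SD beside them; each axis starts at 0. In all 11 the groups do not overlap, and the gap is widest relative to the level in Grin3a, Agt and Gria1.

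Of the ligands, 14 of 40 were expressed. Agt encodes angiotensinogen, the precursor of the pressor peptide angiotensin II (8:124556534-124569706, minus strand). It had 4, 4 and 17 counts in MCH replicates 1, 2 and 3 and 67, 52 and 53 in Control. All MCH libraries were below all Control libraries, though the highest MCH library, replicate 3, was 4.37 times the lowest on the CPM scale. Agt fell by 2.76 ± 0.50 on the log2 scale (edgeR adjusted p = 0.0175), from 3.30 ± 0.726 to 0.482 ± 0.436 CPM. The ratio of summed counts was 6.86 (95% exact interval 4.49 to 10.9, counting error only). The log2 change was -3.80 without MCH replicate 3, and the call was lost without MCH replicate 2 or Control replicate 2 or 3 (highest adjusted p = 0.0681). Cck, the cholecystokinin gene, was below the filter, with 0, 0 and 2 counts with MCH and 6, 11 and 13 in Control, a ratio of 14.95 with an interval of 3.79 to 129. With no filter on low counts it was called, and its q-value in the authors' deposited table was 0.00165, with the mark UP.

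Apln, the gene of the peptide apelin, was the most abundant ligand per length (14.2 FPKM). It hardly varied over the libraries, with 765, 767 and 772 counts with MCH and 729, 899 and 757 in Control (-0.03 ± 0.07). Nmb, which encodes neuromedin B, ranged from 68 to 82 counts in Control and 84 to 109 with MCH (0.41 ± 0.15, edgeR adjusted p = 0.138). The endothelin genes Edn2 and Edn1, the enkephalin precursor gene Penk and the kininogen gene Kng2 were all lower in every MCH library than in any Control library on the CPM scale. All 4 passed the filter on low counts in every Control library but not in every MCH library, so the shared direction is only a description. Their counts were few, their log2 changes lay between -1.03 and -0.80, and none passed the test. Gnrh1, Npff, Ghrh, Pyy, Adm and Ghrl overlapped between the groups. The genes at the edge of the expression limit were Kng2, Cysltr1, Try5 and Ghrl just above it, with means of 10.2, 10.2, 10.5 and 10.5 counts. Just below it were Npb, Oxt and P2rx5, with 9.33, 8.67 and 8.33.

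Among the partners in signalling compared here, some were not both expressed. The 16 pairs compared, 4 of receptor subunits and 12 of a ligand with a receptor, were chosen after their values were seen. Each ligand was set against only a chosen receptor gene, so the counts describe these pairs alone. Both genes had a mean of at least 10 counts over the 6 libraries in 7 pairs. These were Grik5 with Grik2, Grin1 with Grin2d, Grin1 with Grin3a, Edn1 and Edn2 with Ednra, Kng2 with Bdkrb2, and Pyy with Npy1r. Of these genes, Grin3a, Edn1, Edn2, Ednra and Kng2 passed the filter on low counts in every Control library but not in every MCH library. In the other 9 pairs 1 gene was below a mean of 10 counts. Per length, Apln stood at 14.2 FPKM while its receptor gene Aplnr stood at 0.0900 FPKM. Gabbr1 stood at 6.17 FPKM and Gabbr2 at 0.00401 FPKM. For Nmb and Nmbr the values were 2.42 and 0.0156 FPKM. Nmb shares 20.6% of its exon bases with Sec11a on the same strand, and Npff shares 32.6% with Gm28047, also on the same strand. The part of this overlap in their counts was not tested. Agt stood at 1.00 FPKM, and its receptor gene Agtr1a had 0 to 3 counts. Transcript levels alone do not show whether a receptor protein was present.

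**Figure D4:**
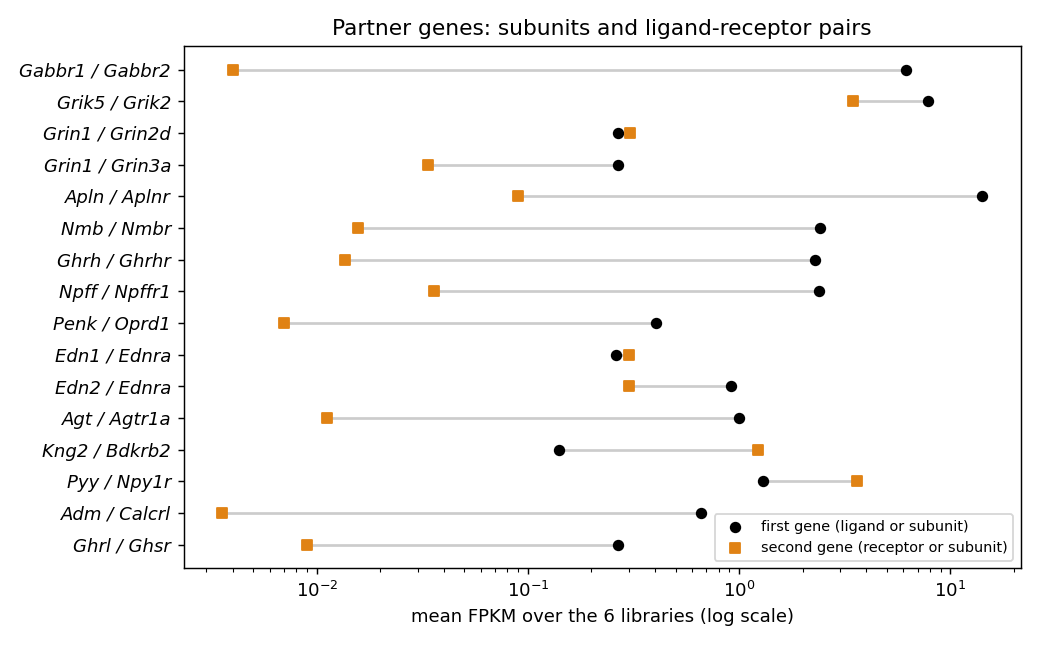
Mean FPKM over the 6 libraries (log scale) for 16 pairs of genes, the first of each pair as a black circle and the second as an orange square. The widest gap is in Gabbr1 and Gabbr2 (6.17 and 0.00401 FPKM), and Grik5 and Grik2 lie close together.

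Across the 73 tested genes, 46 had a log2 change below 0 and 27 above, and the median was -0.16, against 0.00 over all genes tested. The 12 genes that passed the filter in every Control library but not in every MCH library are among the 73, so these counts lend no support to a shift of the set. In 29 of the 73 (39.7%) the groups did not overlap in CPM, 23 with MCH below and 6 above, while 32.8% of all tested genes had such groups, 16.6% with MCH below and 16.1% above. The 62 genes without a call had changes from -1.06 to 0.64. Libraries within a group often disagreed at these levels: 18 of the 73 genes ranged at least 2-fold among the MCH libraries and 10 among the Control libraries. MCH replicate 2 was the lowest of the MCH libraries in 10 of those 18, with Htr1b, Kng2, Bdkrb1, Adra1b and Bdkrb2 as examples. Among all tested genes, 9.70% ranged at least 2-fold in MCH and 7.82% in Control.

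**Figure D5:**
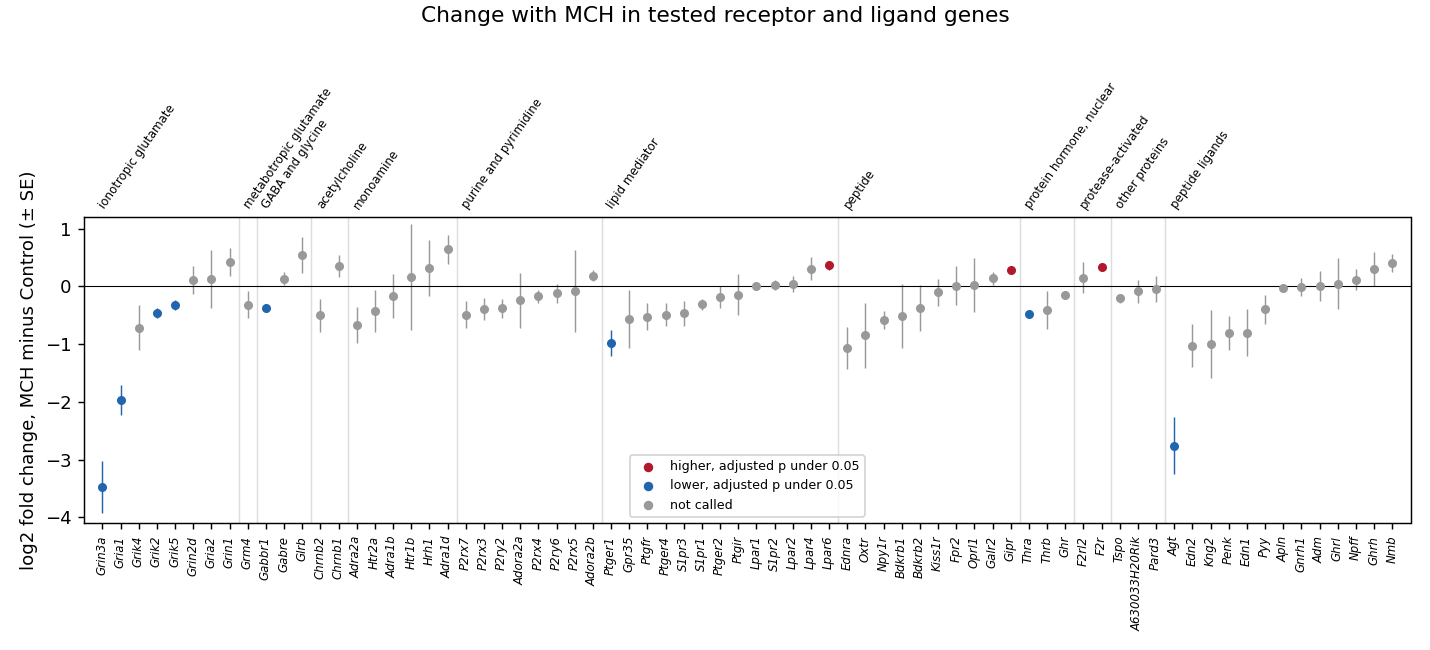
Log2 fold change, MCH minus Control, with its SE for the tested genes, grouped by class and sorted within each; 1 of the 73, without a call, is not drawn. Of the 11 called genes, 3 (red) lie between 0.28 and 0.36, and the 8 blue ones reach from -0.32 (Grik5) to -3.48 (Grin3a).

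Genes that make, carry or remove the transmitters were taken from a list of 64, of which 55 were in the table and 34 were tested. Of these, 9 fell and 2 rose, with a median log2 change of -0.11, where 5.40% of all tested genes fell and 3.64% rose. Slc6a2, the noradrenaline transporter gene, had 2, 3 and 3 counts with MCH and 28, 34 and 20 in Control (-3.28, edgeR adjusted p = 0.00389). Slc6a2 passed the filter on low counts through Control alone. The counts of falls and rises thus describe the genes that passed and give no support for a shift of the list. Enpp2, which encodes autotaxin, the enzyme that makes lysophosphatidic acid, had 557, 368 and 482 counts with MCH and 1030, 1372 and 1173 in Control (-1.32). Glul, which makes glutamine from glutamate, fell by 0.45, the prostaglandin synthase gene Ptgs1 and the taurine transporter gene Slc6a6 by 0.45 each, and the creatine transporter gene Slc6a8 by 0.37. Among enzymes that break down extracellular nucleotides, Entpd2 fell by 1.25 and Nt5e by 0.74. Rises were seen in the glutamine transporter gene Slc1a5 (0.41 on the log2 scale) and the betaine and GABA transporter gene Slc6a12 (0.40). Of 30 tested genes for G protein subunits, receptor kinases and arrestins, Gng10 rose by 0.56 and Gnao1 fell by 0.59, the only calls, with 9.04% of all tested genes called. Leaving out 1 library left 4 to 8 falls on the transmitter list, with 4 when replicate 3 of either group was dropped and 5 when replicate 2 of either was. Of the G protein list, no gene was called higher without Control replicate 2 or MCH replicate 3, and none lower in 5 of the 6 fits.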

How the data were processed

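Polyadenylated RNA from 3 MCH and 3 Control samples was sequenced from VAHTS Universal V6 libraries, per the labels' protocols. The authors deposited a whole-number count and an FPKM value for each gene, per the file headers, and the q-values their own test gave, also per the file headers. The build was GRCm38 (mm10) per the submitters' processing notes. Aligner, counter, annotation release, strandedness and the authors' test: not given in the sources used here. Control columns are not named so; lacking MCH in a series of only 2 groups, they were read as Control, so every direction rests on these names; the authors' deposited UP and DOWN marks name no reference group. The genes and lists were chosen with earlier results of these data known, and the 5 exclusions are part of the definition.

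Counts were tested in edgeR 4.0.16 (R 4.3.3) with TMM scaling, filterByExpr (minimum count 10, minimum total 15), robust quasi-likelihood fitting with group as the only term, and two-sided p-values adjusted by Benjamini-Hochberg, called at 0.05, over 13662 genes, of 19353. Fold changes are MCH minus Control; each SE is the unshrunken coefficient divided by the square root of the F statistic. Replicate libraries were not copies of each other: within groups, chi-square over its degrees of freedom was 14.9 to 25.3. Alternatives used DESeq2 1.42.0 and limma 3.58.1 and are given below. The fit was tested on simulated data with the same dispersion for all genes, which does not cover genes with a wider spread between libraries. Symbols and exons came from GENCODE M21, where all 182 genes were found; coordinates are those of the deposited table, and 167 lay within 1000 bases of M21 at both ends. Named by rule were the called genes, the 12 most abundant by FPKM, expressed glutamate receptors, the most abundant gene of each receptor class with 3 or more expressed, 3 genes on each side of the expression limit and up to 8 called genes per list. Other genes were named after their values were seen. A few genes are not reported here.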

Additional observations from a re-analysis of the deposited data

How the results depend on the processing

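With 1 library left out, the 8 falls became 3 to 7 and the 3 rises 0 to 2; the falls were fewest, at 3, when replicate 2 of MCH, or replicate 2 or 3 of Control, was dropped, and 4 were left without MCH replicate 3. Grin3a, Gria1 and Thra were called in all 6 such fits (Grin3a -3.62 to -3.24, Gria1 -2.28 to -1.80). Over all genes, 497 rises became 65 to 722 and 738 falls 256 to 867. The transmitter list gave 1 to 2 rises and 4 to 8 falls, the G protein list 0 to 2 of each, and 70 to 75 genes were expressed. RLE and upper-quartile scaling and a filter at a mean of 10 counts kept all 11 calls, DESeq2 kept 10 and gave Grin3a no adjusted p, and limma-voom kept 9. DESeq2 raised the rises over all genes to 800 and gave the G protein list 2 rises and 2 falls. That list had 2 rises with no filter on low counts or with limma on log2(FPKM + 1), and 0 falls in the non-robust fit and with limma on log2(FPKM + 0.1) or log2(FPKM + 1). With limma on log2(FPKM + 1), Grin3a changed by -0.0796 and was not called. At a mean of at least 1 FPKM, 33 genes were expressed in place of 74.

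No shared deviation was seen in same-numbered MCH and Control libraries (correlations -0.16, -0.04 and -0.01). Differently numbered libraries gave -0.08 to 0.11. With so few libraries in a group, this check cannot tell whether the replicate numbers pair the samples by animal or culture, which the labels leave unsaid. A fit with the replicate block called 2 genes lower, Grin3a and Gria1, and 0 higher, 28 rises and 151 falls over all genes, 0 rises and 2 falls on the transmitter list, and 0 and 0 on the G protein list. Among the genes named by rule, changes of sign were seen only in genes without a call. Lpar1 was -0.00183 with limma on log2(FPKM + 0.1) and -0.00165 on log2(FPKM + 1). With 1 library left out the ranges were -0.0365 to 0.0404 for Lpar1, -0.17 to 0.69 for Gria2, -0.0468 to 0.29 for Grin2d, -0.47 to 0.62 for P2rx5 and -0.00721 to 0.0713 for S1pr2. Depth limits the 108 genes under 10 counts, where a difference was mostly not detectable.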
